A study of Cunninghamia lanceolata with 3 samples.

Results

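Chromatin modifiers and remodelling factors are the proteins that write, remove or read chemical marks on DNA and histones, or that move nucleosomes along DNA. They were followed here in Cunninghamia lanceolata (Chinese fir), in its vascular cambium, the dividing cell layer that makes wood and bark, as unigenes, which are assembled transcript sequences. A unigene was a member when the text of its best hit in the NCBI protein collection named a histone acetyltransferase or deacetylase, a histone or DNA methyltransferase, a demethylase, a SET domain, a chromodomain, a bromodomain, chromatin, Polycomb or SWI/SNF. This held for 87 of 53590 unigenes. The rule reads the name of the hit and uses no measured level. The data are 3 RNA-seq libraries, 1 each from dormant, reactivating and actively growing cambium. All were cut as tangential cryosections from trees about 16 years old that grew under natural conditions, and the labels do not give the number of trees per library. The labels name no agent, line or genotype for any stage, so the groups differ by stage alone as labelled. Each stage has 1 library, so no difference has a replicate check, none was tested, and stage and library cannot be told apart. A ratio is therefore given with its 95% interval from read counting alone, which leaves out variation between trees and treats PCR copies as separate molecules.

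Plants methylate cytosines in DNA through several enzyme families. Chromomethylases (CMT) keep up methylation at sites marked by histone methylation, and DRM enzymes place new methyl groups under the guidance of small RNAs. SET domain proteins add methyl groups to histone lysines, demethylases remove them, and acetyltransferases and deacetylases set the acetyl groups that bromodomains read. SWI/SNF, ISWI and CHD ATPases slide or evict nucleosomes, and chromatin assembly factors load histones behind the replication fork. In perennial plants, chromatin marks are known from work on buds and on flowering to take part in seasonal memory.

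By the name of the best hit the members fell into 10 role classes. The largest were 23 histone methyltransferases and SET domain proteins and 23 remodellers, followed by 12 bromodomain proteins and 8 DNA methyltransferases. There were 5 histone deacetylases, 5 histone acetyltransferases, 1 lysine-specific histone demethylase, 1 chromodomain protein and 5 other proteins with chromatin in their name. No member was annotated as Polycomb. A further 4 members were obtusifoliol 14-alpha-demethylases, cytochrome P450 enzymes that remove a methyl group from a sterol, which entered through the word demethylase and do not act on chromatin. The best hit lay in Populus trichocarpa for 32 members, in Ricinus communis for 18 and in the moss Physcomitrella patens for 13, so the names are those of relatives and no function was tested.

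The members were longer than the average unigene, with a median length of 551 bases against 323 over all unigenes. Their median RPKM (reads per kilobase of unigene and scaled to the library's uniquely mapped reads), averaged over the libraries, was 11.5 against 12.4 over all unigenes. A gene ontology term was given for 66 members (75.9%), against 38.7% of all unigenes. Of the 87 members, 58 had at least 50 reads over the 3 libraries, and 19 had fewer than 20. Those 19 were short pieces of 194 to 445 bases, namely 9 remodellers, 8 SET domain or histone methyltransferase unigenes and 2 DNA methyltransferases. To be measured in a comparison, a member needed 20 reads or more over the pair of libraries, which 64 members reached in 1 comparison or more. Several members can be pieces of 1 transcript: 27 of them shared 13 best hits.

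The libraries held 5.85 M (dormant), 5.85 M (reactivating) and 5.84 M (active) uniquely mapped reads, so that 3 reads on a unigene of 1 kilobase stand for an RPKM of about 0.513. Of 42 unigenes named for cambium and meristem regulators, 40 (dormant), 41 (reactivating) and 39 (active) were detected, with 5018, 7443 and 8218 reads summed in this order. The unigenes at 0 in a library were clavata-like and CLAVATA1 receptors. Of 48 unigenes named for differentiating xylem (laccases, cellulose synthase catalytic subunits, fasciclin-like proteins and xylem proteinases), 7, 6 and 0 were at 0, and the summed reads were 5831, 2638 and 22003. The 3 phloem unigenes, all sucrose transporters, had reads in every library and summed to 507, 252 and 300. The 18 resin and bark unigenes summed to 957, 1073 and 219 reads, with 1, 9 and 7 of them at 0. Both chlorophyll-binding unigenes were near 0, with 6, 3 and 2 reads summed, 1 of them at 0 in the reactivating and active libraries. These marker levels differed between the libraries, and their part in the results on chromatin members was not tested. In bulk tissue, fewer cells of a type and less RNA per cell cannot be told apart.

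As a whole the members took a similar share of each library. They held 9168 reads in the dormant, 9993 in the reactivating one and 9404 in the active one, or 0.157% (0.154% to 0.160%), 0.171% (0.167% to 0.174%) and 0.161% (0.158% to 0.164%) of the reads, with exact Clopper-Pearson intervals. The class sums moved in different directions within this steady total. DNA methyltransferases were several-fold higher in both growing libraries than in the dormant one, histone deacetylases were lower through 2 abundant unigenes and remodellers through 1, and bromodomain proteins and the histone demethylase stayed close to their dormant level. The plot of summed reads by role class shows these classes side by side.

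**Figure D1:**
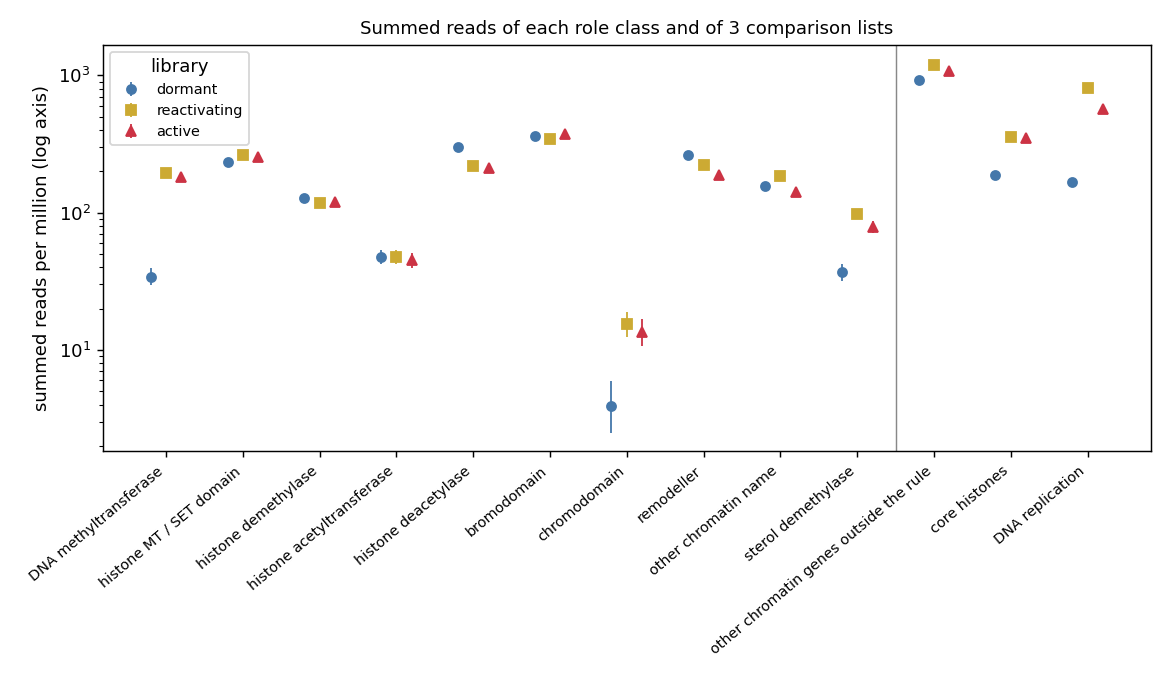
Summed reads of each role class, scaled to library size (RPM), (left of the line) and of 3 lists outside the rule (right of the line) on a log axis, with 1 point per library and exact 95% Poisson counting intervals. DNA methyltransferases stood at 34.2 RPM in the dormant library and at 196 and 182 in the reactivating and active ones, while histone acetyltransferases stood at 47.4, 47.4 and 45.0.

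The comparison of the reactivating with the dormant library asks which chromatin factors differ between resting cambium and cambium that resumes growth. Of 63 measured members, 13 (20.6%) reached 2-fold above their dormant level on reactivation and 6 (9.52%) lay 2-fold or more below it. Over all 36274 measured unigenes the percentages were 16.9% higher and 13.8% lower. In either direction they were 30.2% of the members and 30.7% of all unigenes. The 13 higher members were 5 DNA methyltransferases, 3 sterol demethylases, 2 SET domain or histone methyltransferase unigenes, 1 chromodomain protein, 1 remodeller and 1 chromatin assembly factor subunit. The 6 lower ones were 3 remodellers, 2 SET domain proteins and 1 DNA methyltransferase. The median log2 ratio of the members was 0.08, beside 0.07 over all unigenes. Without the 4 sterol enzymes it was 0.05, with 10 of 59 higher. With best hits at an E-value of at most 1e-20, an alternative chosen after the data were seen, 7 of 46 were higher.

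**Figure D2:**
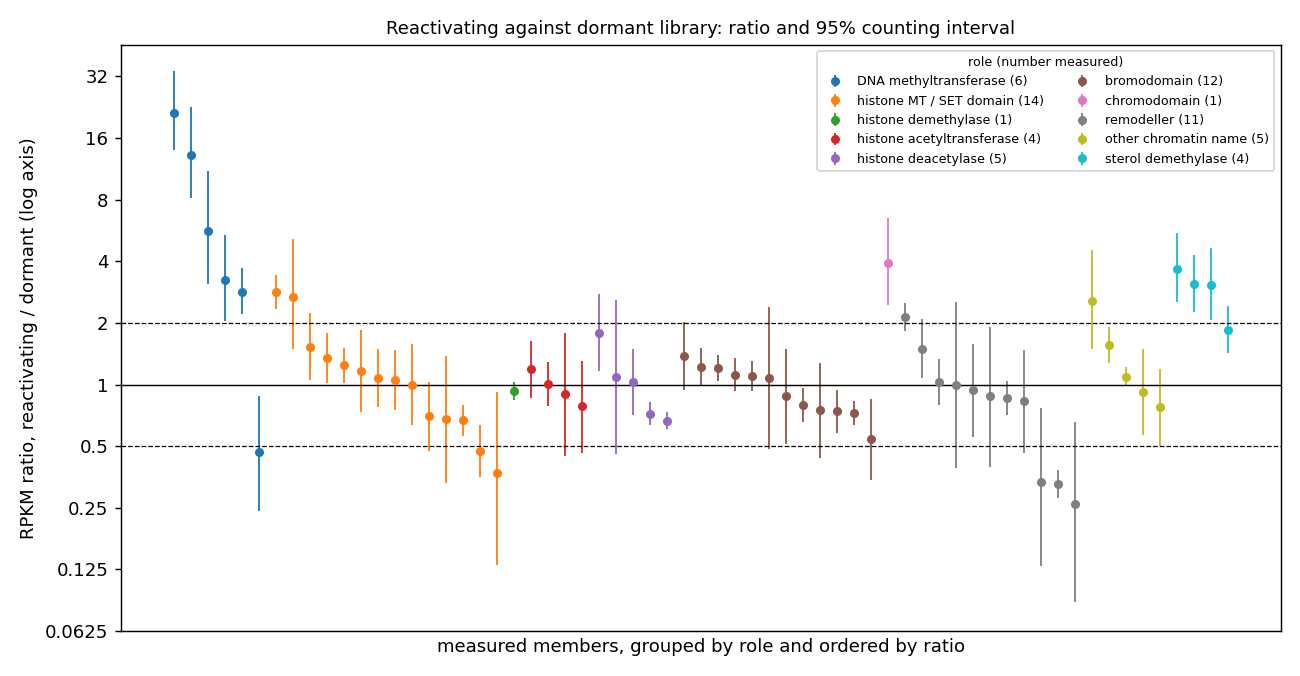
Ratio of RPKM between the reactivating and the dormant library (log axis) for the 63 measured members, grouped by role; points are ratios, bars are 95% counting intervals, and dashed lines mark 2-fold. Of the 6 measured DNA methyltransferases 5 lie above the upper dashed line and 1 below the lower one, while all 12 bromodomain proteins lie between the lines.

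The DNA methyltransferases had the largest ratios. Together the 8 unigenes had 200 reads in dormant, 1145 in reactivating and 1065 in active cambium. The sum exceeded the dormant one 5.72-fold (4.92 to 6.69) on reactivation and 5.33-fold (4.58 to 6.23) in active growth. Without the CMT-type pair, a subset formed after the values were seen, it had 159, 417 and 429 reads and ratios of 2.62 (2.18 to 3.17) and 2.70 (2.25 to 3.26). A CMT-type DNA-methyltransferase (Unigene17290), of the chromomethylase family, had 23 reads in the dormant library, 490 in the reactivating and 397 in the active one, which is an RPKM of 2.62, 55.8 and 45.2. It was low in the dormant library alone, 21.3-fold higher (14 to 33.9) in the reactivating library and 17.3-fold higher (11.4 to 27.6) in the active one. Another unigene with the same best hit (Unigene7709) had 18, 238 and 239 reads, an RPKM of 1.68, 22.2 and 22.3. Its ratios to the dormant library were 13.2 (8.19 to 22.7) and 13.3 (8.23 to 22.8). Since both share the hit, they may be parts of 1 transcript and do not count as separate evidence.

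Enzymes of the DRM type split. The unigene named DRM1/2 (Unigene17487) had 24, 78 and 107 reads, an RPKM of 3.48, 11.3 and 15.5, with the dormant library lowest and the active one highest. It was 3.25-fold higher (2.03 to 5.37) in the reactivating and 4.46-fold higher (2.85 to 7.27) in the active library than in the dormant one. A DRM-type unigene (Unigene51314) had 13, 73 and 57 reads and was 5.61-fold higher (3.09 to 11) in the reactivating library. The other unigene with that best hit (Unigene7062) went the other way, with 34, 16 and 24 reads, an RPKM of 8.11, 3.81 and 5.73. It was 2.13-fold lower (1.14 to 4.12) in the reactivating library, and its active level differed from the dormant one by less than the counting error, at a ratio of 0.707 (0.401 to 1.23). Thus the members with the same best hit stood on opposite sides of 2-fold.

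A unigene annotated only as DNA methyltransferase (Unigene13656) was the most abundant of the class in the dormant library, with 85, 242 and 235 reads and an RPKM of 11.5, 32.6 and 31.7. Its dormant level was the lowest of the 3, and the ratios were 2.85 (2.21 to 3.69) for reactivating and 2.77 (2.15 to 3.59) for active against dormant. The remaining 2 members of the class, Unigene43520 and Unigene49916, had 11 and 6 reads in all and were not measured. Between the reactivating and active libraries 0 of 6 DNA methyltransferases differed by 2-fold, where 11.9% of all unigenes did. The ratio of their sums was 0.931 (0.856 to 1.01).

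The percent of a unigene's length covered by reads moved with the counts. For the CMT-type Unigene17290 it was 44.6% in the dormant, 96.6% in the reactivating one and 98.6% in the active one, and for Unigene7709 it was 37.0%, 98.9% and 98.5%. The low dormant level thus came with reads on the smaller portion of each sequence. Coverage comes from the same reads as the counts, so it is not separate evidence. For Unigene7062 coverage was lowest in the reactivating library, at 77.7%, 53.8% and 80.1%.

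Among histone methyltransferases and SET domain proteins, 14 were measured in the reactivating and dormant libraries. Of these, 2 were higher by 2-fold or more on reactivation and 2 lower. Over all unigenes 16.9% were higher and 13.8% lower. SET domain-containing protein C (Unigene4321), with its best hit in the pine Pinus radiata, had 150, 423 and 475 reads. Its RPKM of 73.5, 207 and 233 was the highest of all members in the reactivating and active libraries. It was lower in the dormant library than in both others, by ratios of 2.82 (2.33 to 3.42) and 3.17 (2.63 to 3.83). A shorter unigene with the same best hit (Unigene36623) had 37, 43 and 41 reads, and its ratio of reactivating to dormant was 1.16 (0.731 to 1.85). The relative of ASHH1 (Unigene10558), a SET domain methyltransferase of Arabidopsis, had 16, 43 and 34 reads, and its ratios to the dormant library were 2.69 (1.48 to 5.11) and 2.13 (1.14 to 4.13). Its interval reached below 2-fold in both comparisons.

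Other SET domain unigenes stood highest in the dormant library. Unigene55570 had 147, 70 and 66 reads, an RPKM of 33.3, 15.8 and 15.0. Its dormant level was the highest, with 2.10-fold lower (1.57 to 2.83) values on reactivation and 2.23-fold lower (1.65 to 3.02) ones in active growth. The abundant SET domain protein Unigene11250, with 349, 233 and 219 reads, was 1.5-fold lower (1.27 to 1.78) in the reactivating library and so stayed within 2-fold. A relative of SUVH methyltransferases (Unigene15651), which in Arabidopsis act on histone lysines in silenced regions, had 196, 243 and 145 reads, with the active library lowest. Its active level was 1.67-fold lower (1.36 to 2.07) than the reactivating one. Unigene14166 had 41, 41 and 57 reads, and its active to reactivating ratio of 1.39 (0.916 to 2.13) had an interval that held 1. The class as a whole had 1371, 1550 and 1480 reads, so its sum moved by ratios of 1.13 (1.05 to 1.22) and 1.08 (1.003 to 1.16) against the dormant library.

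The lysine-specific histone demethylase (Unigene5638), of a family that removes methyl groups from histone lysines, was the longest member at 4535 bases and had 742, 689 and 696 reads. Its RPKM of 28.0, 26 and 26.3 differed between libraries by no more than the counting error, with ratios to the dormant library of 0.928 (0.836 to 1.03) and 0.939 (0.845 to 1.04). It was the only histone demethylase under the name rule. Among jumonji proteins, another family with histone demethylases that the rule does not take in, Unigene19090 had 617, 428 and 354 reads and Unigene43307 had 28, 33 and 26. Unigene19090 was highest in the dormant library, 1.44-fold above (1.27 to 1.63) its reactivating and 1.74-fold above (1.53 to 1.99) its active level, while both intervals of Unigene43307 against the dormant library held 1.

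Histone deacetylases, which remove acetyl groups, were lower in both growing libraries as a sum, with 1761, 1274 and 1231 reads. The sum was 1.38-fold lower (1.29 to 1.49) in the reactivating and 1.43-fold lower (1.33 to 1.54) in the active library than in the dormant one. Of all unigenes 30.7% passed 2-fold in reactivating against dormant, 11.9% in active against reactivating and 31.9% in active against dormant. None of the 5 deacetylases did in any comparison. The most abundant was similar to HDA6 (Unigene58924), which in Arabidopsis takes part in gene silencing, with 1054, 703 and 740 reads and an RPKM of 117, 77.9 and 82.1. It was highest in the dormant library and 1.5-fold lower (1.36 to 1.65) in the reactivating one. The class I RPD3 type deacetylase (Unigene15093) had 599, 432 and 384 reads, its reactivating level being 1.39-fold lower (1.22 to 1.57) than the dormant one. The direction of the class sum rested on these 2 unigenes: the other 3, a subset formed after the values were seen, had 108, 139 and 107 reads, with ratios to the dormant library of 1.29 (0.994 to 1.67) and 0.992 (0.752 to 1.31). The median log2 ratio over the class was 0.05 for reactivating and -0.51 for active against dormant. The relative of HDA14 (Unigene55194) had 36, 64 and 62 reads and was 1.78-fold higher (1.16 to 2.75) in the reactivating than in the dormant library. A further deacetylase (Unigene51668), with 60, 62 and 32 reads, was 1.94-fold lower (1.24 to 3.06) in the active than in the reactivating library.

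Histone acetyltransferases showed no difference of their sum beyond counting error, with 277, 277 and 263 reads and a ratio of 1.0 (0.843 to 1.19) between the reactivating and dormant libraries. The type B catalytic subunit (Unigene52619), of the enzyme that acetylates new histones before they are built into chromatin, had 75, 89 and 101 reads. Its active to dormant ratio of 1.35 (0.990 to 1.84) had an interval that held 1. Of the other acetyltransferases, Unigene58549 had 134, 135 and 123 reads and Unigene43743 had 37, 29 and 27, with all their counting intervals holding 1. A shorter acetyltransferase unigene (Unigene10344) had 20, 18 and 8 reads. It was 2.50-fold lower (1.05 to 6.56) in the active than in the dormant library, on few reads.

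Of the 12 bromodomain proteins, which bind acetylated histones, 0 passed 2-fold between the reactivating and dormant libraries or between the active and dormant ones. Over all measured unigenes 30.7% and 31.9% did. Between the active and reactivating libraries 2 of the 12 were higher by 2-fold or more and 0 lower, beside 6.76% and 5.14% of all unigenes. The sum of the bromodomain proteins was 2110, 2013 and 2201 reads. The most abundant, a chloroplast bromodomain-containing protein by its best hit (Unigene54934), had 507, 367 and 444 reads and an RPKM of 125, 90.4 and 109, lowest in the reactivating library. Another unigene with that best hit (Unigene53919) had 162, 120 and 142 reads. The class sum takes in both, although their best-hit name refers to the chloroplast, and binding to histones was not tested. The reactivating to dormant ratios of this pair were 0.724 (0.631 to 0.829) and 0.741 (0.580 to 0.944), close to each other. Of the other putative bromodomain-containing proteins, Unigene51097 had 230, 257 and 165 reads and Unigene57151 had 259, 206 and 178. Both had their lowest count in the active library. Unigene51097 was 1.56-fold lower (1.27 to 1.90) there than in the reactivating library and 1.39-fold lower (1.14 to 1.71) than in the dormant one. Unigene57151 was 1.45-fold lower (1.20 to 1.77) there than in the dormant library. Its active to reactivating ratio of 0.865 (0.704 to 1.06) had an interval that held 1. Unigene15297, with 51, 70 and 65 reads, had a reactivating to dormant ratio of 1.37 (0.943 to 2.01), whose interval held 1. The Bromodomain unigene with a best hit in Medicago truncatula (Unigene17134) had 329, 397 and 477 reads and was 1.45-fold higher (1.26 to 1.68) in the active than in the dormant library.

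Few members were classed by name as proteins that bind methylated histones. The only unigene in the chromodomain class (Unigene34896) had 23, 90 and 79 reads and was low in the dormant library. Its ratios were 3.91 (2.45 to 6.48) and 3.44 (2.14 to 5.73) for the reactivating and active libraries. A chromodomain helicase (Unigene38703), classed with the remodellers, had 4, 4 and 1 reads and was not measured. A putative heterochromatin protein (Unigene19271), a piece of 150 bases, had 53, 41 and 25 reads and was highest in the dormant library. It was 2.12-fold lower (1.29 to 3.56) in the active library, while the interval of its reactivating to dormant ratio, at 0.773 (0.502 to 1.18), held 1.

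**Figure D3:**
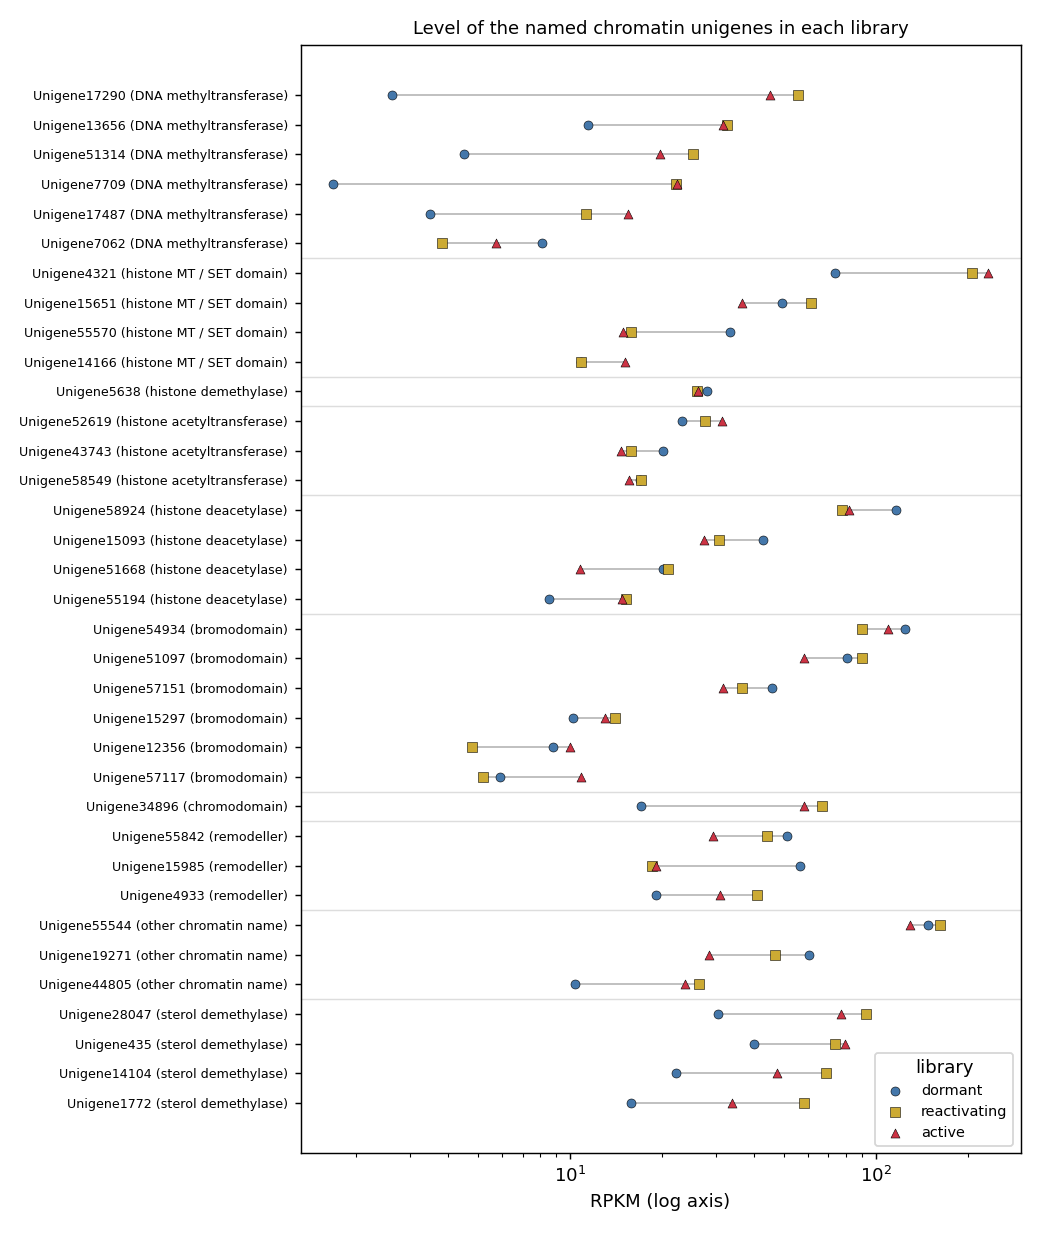
RPKM (log axis) in the dormant (circle), reactivating (square) and active (triangle) library for the 35 members named by rule, ordered by role; a grey line joins the lowest and highest library. The circle lies left of both other symbols for 5 of 6 DNA methyltransferases and for all 4 sterol demethylases, and right of both for the remodeller Unigene15985; for Unigene14166 and Unigene58549 the dormant symbol is hidden by the reactivating one.

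Remodellers, the ATPases and partners that shift nucleosomes, had their highest sum in the dormant library, with 1548, 1299 and 1096 reads. Of 11 measured, 1 reached 2-fold above its dormant level on reactivation and 3 lay 2-fold or more below. Over all unigenes the shares were 16.9% and 13.8%. A remodelling complex subunit with a best hit in Populus (Unigene15985) had 693, 227 and 234 reads, an RPKM of 56.5, 18.5 and 19.1. Its dormant level stood above both others, and it was 3.05-fold lower (2.62 to 3.56) in the reactivating and 2.96-fold lower (2.55 to 3.45) in the active library. The direction of the class sum rested on this unigene: without it, a subset formed after the values were seen, the class had 855, 1072 and 862 reads, with ratios to the dormant library of 1.25 (1.14 to 1.37) and 1.01 (0.917 to 1.11). Unigene4933, another complex subunit, had 246, 525 and 397 reads and was 2.13-fold higher (1.83 to 2.49) in the reactivating library. The SWI/SNF protein Unigene55842 had 234, 201 and 134 reads and was lowest in the active library, 1.74-fold lower (1.40 to 2.17) than in the dormant one. A relative of the ISWI ATPase (Unigene4251) had 63, 94 and 71 reads, and its reactivating to dormant ratio was 1.49 (1.07 to 2.09).

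Of the remaining chromatin proteins, the chromatin assembly factor I P60 subunit (Unigene44805), which helps to load histones onto newly copied DNA, had 20, 51 and 46 reads. It was lowest in the dormant library, with ratios of 2.55 (1.49 to 4.51) and 2.30 (1.33 to 4.11). An ATP-dependent chromatin assembly factor (Unigene10041) had 157, 245 and 167 reads and was highest in the reactivating library, 1.56-fold higher (1.27 to 1.92) than in the dormant one. The DEK domain-containing chromatin associated protein (Unigene55544) was the most abundant member of the dormant library, with 652, 712 and 568 reads and an RPKM of 148, 162 and 129. It stayed within 2-fold throughout.

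The sterol demethylases, kept apart because they do not act on chromatin, had 215, 571 and 460 reads as a sum, 2.66-fold higher (2.27 to 3.12) in the reactivating library. Unigene1772 had 35, 129 and 75 reads, Unigene14104 had 55, 170 and 118, and Unigene28047 had 34, 104 and 86. All 3 were low in the dormant library. Since Unigene1772 and Unigene14104 share a best hit, they may be parts of 1 transcript and do not count as separate evidence. The fourth, Unigene435, had 91, 168 and 181 reads and lay just inside 2-fold in both comparisons, with ratios of 1.85 (1.42 to 2.41) and 1.99 (1.54 to 2.59).

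The second comparison sets the fully active against the reactivating library. Of 63 measured members, 5 reached 2-fold above their reactivating level in active growth and 1 was 2-fold lower, against 6.76% and 5.14% of 36079 unigenes. The share of members beyond 2-fold in either direction was 9.52%, beside 11.9% over all unigenes, and 43 of the 63 counting intervals held a ratio of 1. The median log2 ratio was -0.10, beside -0.06 over all unigenes. The 5 higher members were 2 single bromodomain-containing proteins, 2 remodellers and 1 SET domain protein, all with 51 to 158 reads in the 3 libraries. With a minimum of 100 reads the count was 0, and with intervals wholly beyond 2-fold it was 1.

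The members that were higher in the active library all had their lowest count in the reactivating one. They were called by their ratio to the reactivating library, so a low count there is partly built in by the call. The bromodomain unigene Unigene12356 had 59, 32 and 67 reads and was 2.10-fold higher (1.36 to 3.30) in the active than in the reactivating library. Unigene57117, with the same best hit, had 33, 29 and 61 reads and was 2.11-fold higher (1.33 to 3.40). Its reactivating to dormant ratio of 0.879 (0.515 to 1.49) had an interval that held 1. The third and longest unigene with this hit (Unigene19076) had 265, 291 and 347 reads and was 1.19-fold higher (1.02 to 1.40). In the remodeller class the SNF2 superfamily protein Unigene54690 had 24, 8 and 20 reads, and the subunit Unigene8315 had 23, 6 and 22. Their active to reactivating ratios were 2.50 (1.06 to 6.57) and 3.67 (1.44 to 11.1). The SET domain protein Unigene9654 had 19, 7 and 33 reads, with a ratio of 4.72 (2.05 to 12.6), the only one of the 5 whose interval lay wholly above 2-fold. The member lower in the active library was the acetyltransferase Unigene10344, with a ratio of 0.445 (0.167 to 1.08).

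The third comparison, active against dormant, uses the dormant library again and so is not independent of the first. In it 12 of 64 measured members (18.8%) were higher by 2-fold or more and 4 (6.25%) lower, against 18.1% and 13.8% of 36288 unigenes. In either direction they were 25% of the members and 31.9% of all unigenes. The 4 lower members were Unigene15985, Unigene55570, Unigene19271 and Unigene10344. The median log2 ratio was 0.08, beside 0.01 over all unigenes, and was -0.04 without the sterol enzymes, so its sign depended on those 4 unigenes.

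**Figure D4:**
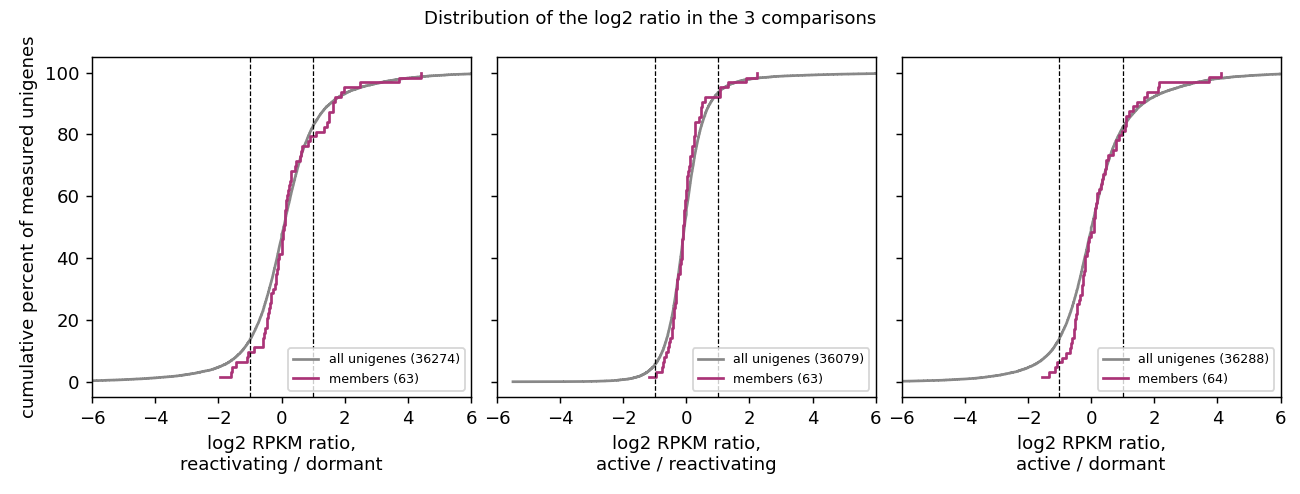
Cumulative percent of measured unigenes by log2 ratio of RPKM in the 3 comparisons, for the members and for all unigenes, with dashed lines at 2-fold. The curves cross 50% at nearly the same ratio in each panel (medians of the members 0.08, -0.10 and 0.08, of all unigenes 0.07, -0.06 and 0.01).

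Over the 3 stages, 58 members had at least 50 reads in all, and 17 of them (29.3%) stood apart in 1 library, meaning at least 2-fold above or below both others. Over all unigenes with as many reads this share was 26.9%. Of the 17, 2 were high in the dormant library (Unigene15985 and Unigene55570; 3.45%, beside 8.1% of all unigenes). Another 3 were low in the reactivating library (Unigene54690, Unigene8315 and Unigene9654; 5.17%, beside 1.35%). These 3 had 52, 51 and 59 reads in all, close to the minimum of 50. No member was high in the reactivating or the active library alone. The other 12, low in the dormant library, were 20.7% of the members, beside 11.6% of all unigenes, and 3 of the 12 were sterol demethylases.

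Further chromatin proteins outside the rule were taken from a list of names for histone chaperones, argonaute and dicer proteins, SNF2, jumonji and PHD finger proteins and retinoblastoma-related proteins. Of its 67 unigenes 41 were measured between the reactivating and dormant libraries, with 10 higher by 2-fold or more and 3 lower, against the same 16.9% and 13.8% of all unigenes. Of 14 unigenes named for argonaute, the family that carries small RNAs, 9 were measured in this comparison, 4 of them higher by 2-fold or more and 0 lower. The largest ratio was that of Unigene55017, with 3, 36 and 59 reads, at 12.0 (3.79 to 60.9). Unigene11338 had 8, 56 and 44 reads and a ratio of 7.0 (3.32 to 17.0). Unigene12511 had 30, 220 and 229 reads and was 7.33-fold higher (4.99 to 11.1) in the reactivating library, and Unigene51607 had 14, 96 and 106 and was 6.86-fold higher (3.89 to 13.0). All 4 carry the same best-hit name, so they may be parts of 1 transcript and do not count as separate evidence. The 14 argonaute unigenes together had 950, 1347 and 1326 reads. Their reactivating to dormant ratio of sums was 1.42 (1.30 to 1.54). Some other argonaute unigenes were flat or lower. The abundant Unigene59409 had 460, 457 and 400 reads and a ratio of 0.993 (0.871 to 1.13). Unigene40503 had 207, 160 and 147 reads and a ratio of 0.773 (0.625 to 0.954). A nucleosome assembly protein family unigene (Unigene53899), a histone chaperone, had 688, 1433 and 988 reads and was 2.08-fold higher (1.90 to 2.28) on reactivation. The nucleosome assembly proteins differed among themselves. Unigene24692 was also higher, at a ratio of 2.14 (1.88 to 2.44). The interval of Unigene26756, at 0.893 (0.768 to 1.04), held 1. Dicer-like protein 4 (Unigene44956), of the family that cuts longer RNA into small RNAs, had 25, 10 and 8 reads, a level 2.50-fold lower (1.16 to 5.83) on reactivation. A dicer-1 unigene (Unigene51372) was lower too, at a ratio of 0.391 (0.159 to 0.878). The interval of a dicer-like 3b unigene (Unigene40285), at 1.24 (0.808 to 1.92), held 1. Between the active and dormant libraries 11 of 42 were higher and 1 was lower, beside 18.1% and 13.8% of all unigenes. Between the active and reactivating ones 3 of 43 were higher and 0 lower, beside 6.76% and 5.14%.

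Unigenes for DNA copying and core histones moved in the same direction as the DNA methyltransferases. Among 15 unigenes of DNA replication the summed reads were 986, 4696 and 3301, and 8 of 11 measured exceeded their dormant level at least 2-fold on reactivation. Among 17 core histone unigenes the sums were 1098, 2070 and 2052, with 11 of 16 higher. Over all unigenes 16.9% were higher by 2-fold or more in this comparison. For DNA replication and core histones the reactivating to dormant ratios of the sums were 4.76 (4.44 to 5.11) and 1.88 (1.75 to 2.03). For the DNA methyltransferases the ratio was 5.72. The median log2 ratios of the measured unigenes were 4.99, 1.60 and 2.09 in the same order. Sums and medians thus ranked these sets differently. Between the active and reactivating libraries the ratio was 0.704 (0.673 to 0.736) for DNA replication and 0.931 (0.856 to 1.01) for the DNA methyltransferases. The part of dividing cells in the level of the DNA methyltransferases was not tested.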

How the data were processed

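Poly(A) RNA was captured on oligo(dT) beads, fragmented, copied from random hexamers and read on an Illumina sequencer, as the labels' protocols state. The authors deposited, per library and per unigene, the count of uniquely mapped reads (whole, not normalised), the RPKM, the percent of the length covered (coverage) and, per the file headers, its length. No source used here names the assembler, the read mapper or their settings. The deposited RPKM equalled reads over length and header total to a relative tolerance of 1e-06. No strand-specific step is described, so antisense reads cannot be told apart, and reads that map to several near-identical unigenes were not counted.

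Where a table did not list a unigene, 0 reads were used. Ratios of RPKM carry Clopper-Pearson 95% intervals of 1 library's share of both libraries' reads, computed with Python 3.11.15 and scipy 1.17.1. A floor of 3 reads replaced 0, and no ratio was taken where both libraries were at or under it. Calls needed at least 20 reads over the pair of libraries and a ratio of at least 2-fold, on the whole table. Role classes are name patterns. The named members are, per role, the 2 with the highest mean RPKM and the largest ratios each way (at least 50 reads), and any with at least 100 reads beyond 2-fold; all other members that were called, and further ones that fill out a class or share a best hit, and the examples from the lists, were added after their values were seen. Members, lists and rules were chosen with earlier results of these data known. Scaling alternatives used edgeR 4.0.16 and DESeq2 1.42.0 factors only. The ratio script was tested on simulated data. No nucleotide or protein sequence of the unigenes was used here.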

Additional observations from a re-analysis of the deposited data

How the results depend on the processing

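Scaling by edgeR TMM factors or DESeq2 size factors changed no count of members beyond 2-fold and no count set apart in 1 library, and none of 105 ratios of the named members left its counting interval or crossed 2-fold under either. Both scalings shifted log2 ratios by -0.07 to 0.06. Removing the sterol demethylases kept each count within 1.5 times. Other settings moved counts by more. In unigenes of at least 500 bases, 6 members were higher in reactivating against dormant (13 as reported), 0 lower in active against reactivating (1), 5 higher and 2 lower in active against dormant (12 and 4), and 9 set apart (17). With best hits at an E-value of at most 1e-20, chosen after the data were seen, 7, 3 and 6 members were higher in the 3 comparisons, in the order of the report, and 10 set apart. With no minimum of reads, 14 were lower in the first comparison, 13 higher and 5 lower in the second, 9 lower in the third and 29 set apart. With a minimum of 100 reads, 2, 0 and 2 were lower in the 3 comparisons and 0 higher in the second. With intervals wholly beyond 2-fold, 1 was lower in the first, 1 higher and 0 lower in the second, 7 higher and 1 lower in the third, and 8 set apart. With reads summed over the same description, 1 was lower in the first, 1 higher and 0 lower in the second, 1 lower in the third, and 10 set apart. These settings change which unigenes are measured or merged, except the interval rule, which asks more of the same unigenes. The median log2 ratio ran from 0.00 to 0.26, from -0.14 to -0.04 and from -0.11 to 0.12 over all settings, so the third has no stable sign. No paired analysis was possible because each stage has 1 library. Depth limits the members under 50 reads, whose intervals often span more than 2-fold each way.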
